A study of Homo sapiens with 6 samples.

Results

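MMP, ADAM, ADAMTS and TIMP genes encode the zinc proteases that cut the extracellular matrix and shed proteins from the cell surface, and the inhibitors that block them. They were described here in M14, an established human melanoma line. All protein-coding rows of the deposited expression table whose symbol is MMP, ADAM, ADAMTS or TIMP followed by a digit were taken, 49 of the 26748 genes in the table and of its 15520 protein-coding genes. Of the 49, 22 encode secreted proteases (MMPs without a membrane anchor and ADAMTS enzymes), 22 encode membrane-bound proteins (membrane-type MMPs and ADAMs), 4 encode the inhibitors TIMP1 to TIMP4, and MMP24OS, the gene opposite MMP24, encodes neither a protease nor a TIMP.

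The study compared M14 cells grown without attachment as 3D melanospheres (3 libraries) with the same line grown attached in conventional 2D culture (3 libraries), to characterise putative cancer stem cells. Neither culture carried an added gene, agent or genetic change in the labels, and no label gives the medium or the time in culture. Poly(A) RNA of whole cultures was sequenced, so fewer cells of a type and less RNA per cell cannot be told apart. Whether replicates came from separate cultures is not in the labels, so a p-value here reflects only how far the libraries spread, which may be technical variation.

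As background, MMPs are made as inactive proenzymes and cleave collagens, gelatin and many other matrix proteins. ADAMs sit in the plasma membrane, where the catalytic ones release growth factors, Notch and adhesion molecules from the surface. ADAMTS enzymes are secreted, bind the matrix and cleave proteoglycans such as aggrecan and versican, procollagens or clotting factors. TIMPs bind the active site of these enzymes and also have roles in their activation, since TIMP2 bridges MMP14 and the proenzyme of MMP2 at the cell surface. In melanoma, matrix proteases are known for their part in invasion and in remodelling of the tumour stroma.

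Libraries held 16567763 to 19954987 reads assigned to genes, and the values below are normalised counts, that is reads divided by 1 size factor per library. The 2D libraries were not alike. On the first principal component of all tested genes, 2D replicate 3 lay at -24.7, between 2D replicates 1 and 2 (-94.7 and -84.4) and the 3D libraries (59.3 to 73.9). Of 11 pigment cell markers, MITF had 309, 271 and 285 in 3D, against 1210.4, 1295 and 887 in 2D, and PMEL had 1215, 620.4 and 1377 in 3D, against 323, 227 and 753 in 2D. S100A1 was called higher in 3D, with 77.9, 68.8 and 83.6 in 3D, against 5.72, 16.0 and 31.9 in 2D (log2 change 2.32, adjusted p = 0.020). DCT, found almost only in 2D, and MITF were called lower (log2 change -5.48 and -1.95, adjusted p = 0.0014 and 0.00077). PMEL was not called. SOX10, MLANA, TYR, TYRP1, S100B, EDNRB and PAX3 were under a mean of 10 over the 6 libraries. Most markers that define the labelled cell type were thus low. TYRP1 had 11.4, 12.8 and 13.4 in 2D, against 0, 5.82 and 0 in 3D. In 2D replicate 3, SOX10 had 37.0, TYR 33.9, MLANA 17.5 and S100B 13.4, each its highest value. The summed level of the 4 epithelial markers, chiefly the keratins KRT8 and KRT18, was 30468 to 41708 in 3D and 22295 to 59678 in 2D. Both other epithelial markers were lower in 3D, EPCAM with 200.4, 132 and 184 in 3D, against 464, 446 and 359.8 in 2D (log2 change -1.31, adjusted p = 0.0074) and CDH1 as given further on (log2 change -3.89, adjusted p = 0.0012). Of 6 leukocyte markers, LYZ and AIF1 were not found among the deposited genes, and the other 4 summed to 4.64 to 19.4 in 3D and 2.86 to 10.7 in 2D. Of 7 fibroblast markers, COL1A2, LUM and PDGFRA were not found among the deposited genes either. The other 4 summed to 8282 to 11966 in 3D and 1980.4 to 6011 in 2D. Nearly all of this was COL1A1 and COL3A1, while DCN and THY1 were at or near 0. The 5 endothelial markers summed to 138 to 188 in 3D and 39.5 to 319 in 2D. Among them PECAM1 was higher in 3D, with 94.6, 154 and 101 in 3D, against 0, 0 and 9.25 in 2D (log2 change 5.72, adjusted p = 0.0040), while CDH5 had 19.5, 21.3 and 21.7 in 3D, against 25.7, 13.9 and 268 in 2D, most of it in 2D replicate 3, and KDR and TEK were at or near 0. The part of these marker levels in the results below was not tested.

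Of the 49 genes, 30 had a mean of at least 10 normalised counts and were tested. In the 3D spheres, 8 were higher (MMP1, MMP2, MMP17, ADAM33, ADAMTS4, ADAMTS6, ADAMTS10 and TIMP1) and 5 were lower (MMP24, MMP24OS, ADAMTS1, ADAMTS5 and TIMP3), by limma over all 15598 tested genes with a Benjamini-Hochberg adjusted p under 0.05. Over all tested genes, 12.5% were higher and 11.6% were lower. These were 1950 and 1816 genes, and scaling to equal library totals gave 2392 and 1253 genes, with 9 higher and 4 lower among the 30. The median log2 change of the 30 genes was 0.61, beside -0.02 over all tested genes and -0.08 over the protein-coding ones, and the median size of the change was 1.12 beside 0.50. The 3D and 2D libraries did not overlap for 9 of the 30 genes on the higher side and 8 on the lower side, where 20.5% and 22.6% of all tested genes showed the same. These shares describe genes that passed the filter, which MMP1, MMP13 and MMP25 passed only through their 3D level and MMP14 only through its 2D level. Without 2D replicate 3, 15 of the genes were higher and 7 lower, while all tested genes were called higher in 22.6% and lower in 23.0%. The lowest numbers were 5 and 3 without 3D replicate 1, and 4 and 3 without 3D replicate 3, while without 2D replicate 1 or 2D replicate 2 they were 6 and 3. Calls over all tested genes dropped in these fits too. They were 609 higher and 698 lower without 3D replicate 1, and 534 and 656 without 3D replicate 3. Without 2D replicate 1 they were 830 and 719, and without 2D replicate 2 they were 1025 and 768.

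By group, 5 of 12 tested secreted proteases were higher and 2 lower, with a median log2 change of 1.55 (-2.14 to 6.59). Of 13 tested membrane-bound genes, 2 were higher and 1 lower, with a median of 0.43 (-3.0 to 2.38). These counts were near the shares of all tested genes, 12.5% higher and 11.6% lower. Among the 4 inhibitors 1 was higher and 1 lower, with a median of -0.40 (-1.02 to 1.31). With no filter on low values, which takes in all 22 secreted proteases, the median of that group was -0.03. With 2D replicate 3 left out the secreted group had 7 higher and 2 lower, the membrane-bound group 7 and 2, and the inhibitors 1 and 2. All tested genes were then called higher in 22.6% and lower in 23.0%. Without 3D replicate 3 the groups had 3 and 2, 1 and 1, and 0 and 0 in the same order. Over all 15598 tested genes, that fit called only 534 higher and 656 lower. With 3D replicate 1 left out the membrane-bound group had 1 and 1, and no inhibitor was called with 2D replicate 1 or 2 or 3D replicate 1 left out. Genes of a group are not replicates, so the difference between the groups was not tested. Each of the 3 groups held genes that moved in opposite directions.

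**Figure D1:**
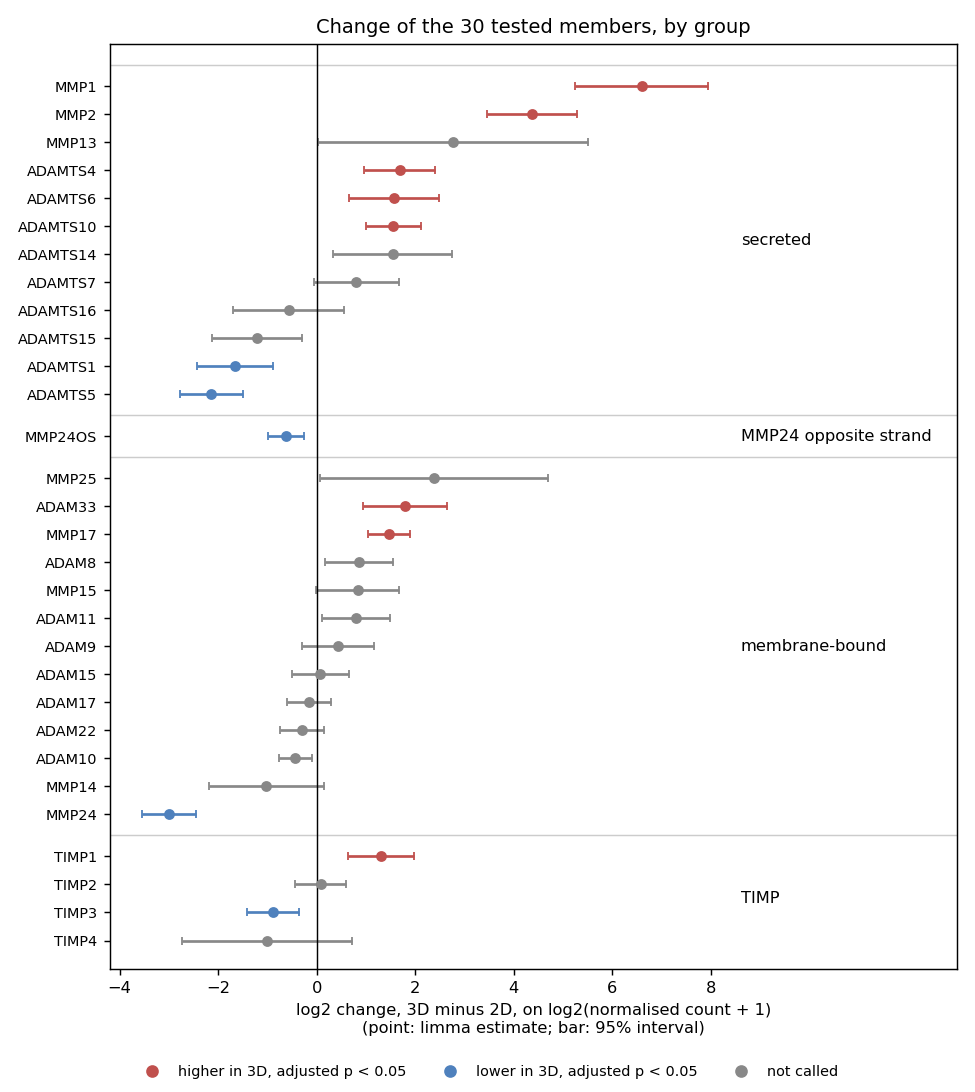
Log2 change of the 30 tested genes, 3D minus 2D, on the log2(normalised count + 1) scale (x axis), by gene and group (y axis), with the limma estimate as a point and its 95% interval as a bar. MMP1 and MMP2 lie furthest to the right, at 6.59 and 4.37, and MMP24 and ADAMTS5 furthest to the left, at -3.0 and -2.14.

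The largest rises were those of MMP1 and MMP2, secreted enzymes that act on collagen in sequence. MMP2 (ENSG00000087245, chromosome 16, 55389700 to 55506691, plus strand, GRCh38), which encodes gelatinase A and degrades denatured collagen and basement membrane collagen, had 2514, 7549.5 and 2842 normalised counts in the 3D libraries, against 152, 162 and 242 in the 2D libraries. Every 3D library lay above every 2D library, and 3D replicate 2 was higher than the other 3D libraries. Its level rose 20.7-fold (log2 change 4.37, SE 0.40, adjusted p = 0.00057), and the change was 3.87 without 3D replicate 2. MMP1 (ENSG00000196611, chromosome 11, 102789920 to 102798160, minus strand), the interstitial collagenase that makes the initial cut in fibrillar collagen, had 128, 335 and 122 normalised counts in the 3D libraries, against 0.953, 0 and 2.06 in the 2D libraries. These were 602 reads over the 3D libraries and 3 reads over the 2D libraries (log2 change 6.59, adjusted p = 0.00057), so the gene was at or near 0 in every adherent library. The ratio of the summed reads was 193 (95% interval 65.7 to 938, counting error only), and it ran from 123 with 3D replicate 2 left out to 388 with 2D replicate 3 left out. WTAPP1, a pseudogene on the other strand that shares 7.61% of the exon bases of MMP1, had 1.86, 0.969 and 8.26 normalised counts in 3D and 1.91, 4.27 and 4.11 in 2D.

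The other collagenases and gelatinases were low in both cultures. MMP13, or collagenase 3, had 9.28, 57.2 and 1.03 normalised counts in the 3D libraries, against 2.86, 0 and 0 in the 2D libraries. Nearly all of its 3D reads came from 3D replicate 2, and 3D replicate 3 was below 2D replicate 1, so the cultures overlapped (log2 change 2.77, SE 1.2, adjusted p = 0.12). The interval of its log2 change, 0.03 to 5.50, was the widest of the 30 tested genes. The 70 reads in 3D against 3 in 2D gave a ratio of 22.4 (95% interval 7.37 to 111), and 5.30 (1.40 to 29.6) without 3D replicate 2. MMP9, or gelatinase B, had 4.64, 1.94 and 4.13 in 3D, against 7.62, 8.54 and 4.11 in 2D, and MMP8, the neutrophil collagenase, had 0 reads over the 3D libraries and 3 over the 2D libraries. MMP1, MMP7, MMP8 and MMP13 lie together on chromosome 11, between 102520508 and 102955734, all on the minus strand. Of these neighbours MMP1 alone was above a mean of 100 in either culture. MMP7, or matrilysin, had 8 reads in 3D and 11 in 2D.

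The aggrecanases, secreted ADAMTS enzymes that cut aggrecan and versican, moved in both directions. ADAMTS1 (ENSG00000154734, chromosome 21, 26835747 to 26845409, minus strand) had 2220.3, 992 and 2163 normalised counts in the 3D libraries, against 4494, 4531 and 7353 in the 2D libraries. It fell to 1792 ± 693 in 3D, against 5459 ± 1640.2 in 2D (SD, n = 3 each; log2 change -1.66, SE 0.34, adjusted p = 0.011). No library of one culture overlapped the other, with 3D replicate 2 the lowest and 2D replicate 3 the highest. ADAMTS5 (ENSG00000154736, chromosome 21, 26917912 to 26966513, minus strand), which lies next to ADAMTS1 on the same strand, had 359, 361 and 393 normalised counts in the 3D libraries, against 1832, 2319 and 1040.4 in the 2D libraries. The 3D libraries were close to each other and all lay below 2D replicate 3, the lowest of the 2D libraries (log2 change -2.14, SE 0.28, adjusted p = 0.0021).

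ADAMTS4, another aggrecanase, had 80.7, 133 and 122 normalised counts in the 3D libraries, against 30.5, 33.1 and 37.0 in the 2D libraries, which did not overlap (log2 change 1.68, SE 0.31, adjusted p = 0.0084). Its call was lost without 3D replicate 3 (adjusted p = 0.053). ADAMTS15 had 55.7, 47.5 and 92.9 in 3D, against 112, 114 and 245 in 2D. Its cultures did not overlap either, but it did not pass (log2 change -1.21, adjusted p = 0.058). ADAMTS8, which neighbours ADAMTS15, had 2 reads over the 3D libraries and 9 over the 2D libraries.

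ADAMTS6 and ADAMTS10, close relatives of each other that act on fibrillin microfibrils, were both higher in the spheres. ADAMTS10 (ENSG00000142303, chromosome 19, 8580242 to 8610735, minus strand) had 377, 549 and 417 normalised counts in the 3D libraries, against 124, 145 and 186 in the 2D libraries (log2 change 1.56, SE 0.25, adjusted p = 0.0045). ADAMTS6 had 110.4, 220.05 and 137 in 3D, against 36.2, 40.6 and 83.3 in 2D, with 2D replicate 3 nearest to the 3D libraries (log2 change 1.57, SE 0.40, adjusted p = 0.026). Leaving out any library other than 2D replicate 3 ended the call of ADAMTS6, whose adjusted p then ran up to 0.094, and without 2D replicate 3 it was 0.0020.

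The remaining tested ADAMTS genes did not pass. ADAMTS14, a procollagen N-proteinase, had 89.1, 42.7 and 119 in 3D, against 15.2, 22.4 and 49.3 in 2D, where 3D replicate 2 was below 2D replicate 3 (log2 change 1.54, adjusted p = 0.065). It passed without 2D replicate 3 (adjusted p = 0.0083) and without 3D replicate 2 (adjusted p = 0.045). ADAMTS7, which cleaves the cartilage protein COMP, had 215, 181 and 196 in 3D, against 73.4, 92.9 and 209.7 in 2D (log2 change 0.80, adjusted p = 0.15). Here 2D replicate 3 was within the range of the 3D libraries, and the gene passed without it (adjusted p = 0.0028). Its count is uncertain, since 7.46% of its 75-base windows also occur in ADAMTS7P3 or other genes. ADAMTS16 averaged 15.1 ± 4.72 in 3D and 23.9 ± 10.04 in 2D (SD, n = 3 each; log2 change -0.57, adjusted p = 0.42).

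Because long genes collect more reads, levels were compared between genes as normalised counts per kb of annotated exon. On that scale the secreted proteases summed to 1079, 2083 and 1161 in the 3D libraries and 946, 1010.4 and 1342 in the 2D libraries, so the summed level of the cultures overlapped while the genes that made it up differed. ADAMTS1 held 29.1, 6.74 and 26.4% of the summed secreted level per kb in the 3D libraries and 67.2, 63.5 and 77.6% in the 2D libraries. ADAMTS5 held 3.67, 1.91 and 3.74% in 3D and 21.4, 25.3 and 8.56% in 2D. For MMP2 the shares were 47.2, 73.5 and 49.6% in 3D and 3.27, 3.26 and 3.65% in 2D. MMP1 held 6.02, 8.17 and 5.33% in 3D and 0.0511, 0 and 0.0778% in 2D. Thus in adherent culture ADAMTS1 led in every library, and in the spheres MMP2 led in every library. Exon lengths are those of all annotated transcripts of a gene merged, so a gene with many alternative exons is placed too low.

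**Figure D2:**
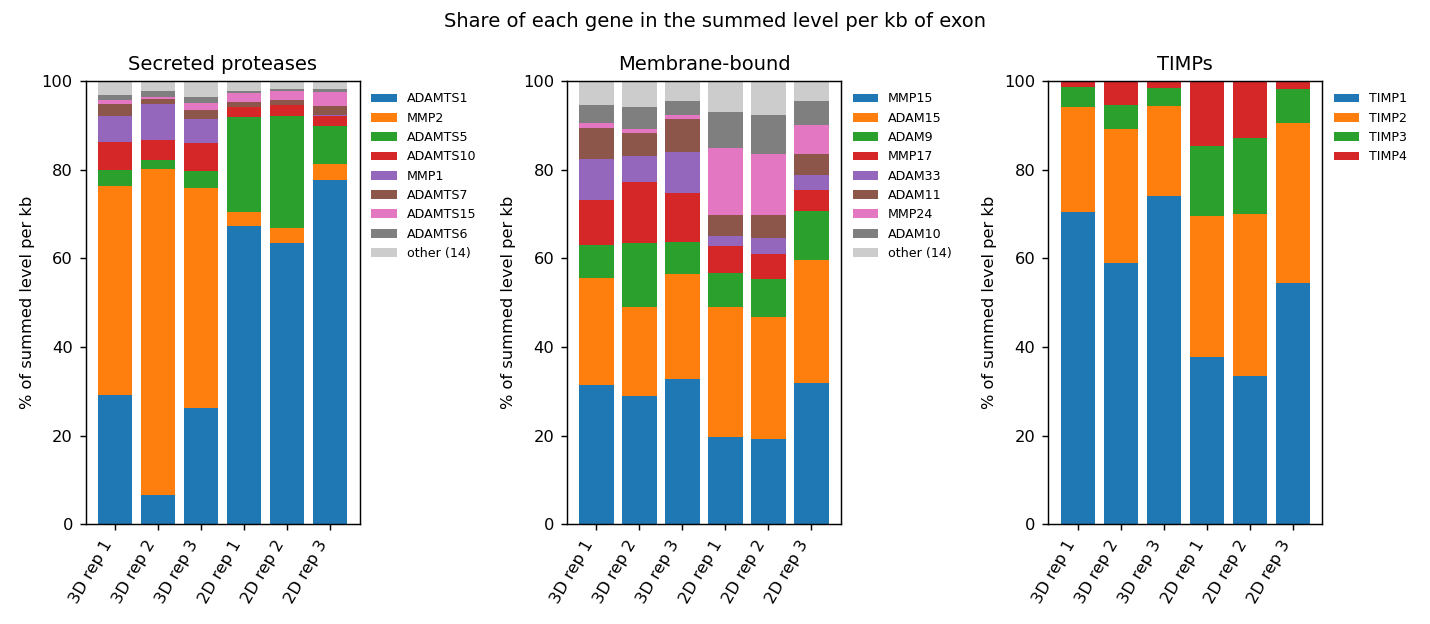
Share of each gene in the summed level per kb of exon (y axis, percent) in each library (x axis), for secreted proteases, membrane-bound proteins and TIMPs, with the 8 highest genes of a group coloured. MMP2 leads the secreted proteases in the 3D libraries and ADAMTS1 in the 2D libraries. The MMP24 share of the membrane-bound proteins is smaller in 3D and the TIMP1 share of the TIMPs is larger.

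Among the membrane-type MMPs, MMP24 fell and MMP17 rose. MMP24 (ENSG00000125966, chromosome 20, 35226654 to 35277000, plus strand), a transmembrane enzyme known chiefly from the nervous system, had 125, 84.3 and 105 normalised counts in the 3D libraries, against 1002, 881 and 666 in the 2D libraries. It averaged 105 ± 20.5 in 3D and 849.5 ± 169.9 in 2D (SD, n = 3 each), and every 3D library lay far below every 2D library (log2 change -3.0, SE 0.24, adjusted p = 0.00040). MMP17 (ENSG00000198598, chromosome 12, 131828393 to 131851783, plus strand), which is held in the membrane by a GPI anchor, had 935, 1041 and 1155 normalised counts in the 3D libraries, against 369, 332 and 436 in the 2D libraries. The libraries of each culture were close together and did not overlap those of the other (log2 change 1.46, SE 0.19, adjusted p = 0.0018). Both calls held whichever of the 6 libraries was left out. MMP24 shares 18.1% of its exon bases with MMP24OS on the other strand, and reads from the shared bases cannot be told apart.

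Promoter sequences of the RefSeq table (GRCh38.p14) were found for 28 of the 49 genes. The called genes MMP1, MMP2, MMP17, ADAM33, ADAMTS1, ADAMTS4 and ADAMTS5 had no entry, so their motifs were not examined. The promoter of MMP24, the gene with the largest fall, is shown as the 250 bases before the annotated start, at chr20:35226440-35226689 on the plus strand, 5′ to 3′. The start is that of RefSeq, and the window runs past the gene start given above, 35226654, which is from GENCODE 29. Capitals mark GC boxes, that is GGGCGG or its complement CCGCCC.
MMP24: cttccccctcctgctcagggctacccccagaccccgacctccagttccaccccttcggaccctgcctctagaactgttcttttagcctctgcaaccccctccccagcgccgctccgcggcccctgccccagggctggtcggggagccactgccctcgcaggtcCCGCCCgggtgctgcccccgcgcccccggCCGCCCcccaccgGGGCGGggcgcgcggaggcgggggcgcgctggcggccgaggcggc
The window held 3 GC boxes, none of which overlapped another. Over the genes with an entry, a GC box was found in 21 of 28 (75%), beside 53.7% of 22199 protein-coding promoter windows of the same length. The AP-1 motif TGANTCA, which reads the same on both strands, was found in 1 (MMP7), beside 5.36% of all windows. The TATA motif TATAAA, or TTTATA on the other strand, was found in 4 (MMP7, MMP8, MMP21 and 1 start of ADAMTS10), all of them secreted proteases, beside 9% of all windows. A match is a description of these letters, not a site shown to be used.

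MMP15, a transmembrane relative of MMP14, had the highest level per kb of exon of the membrane-bound genes over the 6 libraries, at 712 ± 161 in 3D and 439 ± 266 in 2D (SD, n = 3 each). Its normalised counts were 3170.4, 2422 and 3842 in 3D, against 1295, 1226 and 3295 in 2D, so 2D replicate 3 stood with the 3D libraries and the gene did not pass (log2 change 0.83, adjusted p = 0.13). Without 2D replicate 3 the log2 change was 1.29 (adjusted p = 0.0012). MMP14, the chief activator of the MMP2 proenzyme, was scarce, with 10.2, 12.6 and 6.19 normalised counts in the 3D libraries, against 12.4, 19.2 and 32.9 in the 2D libraries. It did not pass (log2 change -1.02, adjusted p = 0.17), and its highest value was in 2D replicate 3. MMP16 had 0 reads in 3D and 2 in 2D. MMP25, the other GPI-anchored enzyme, had 43.6, 17.4 and 36.1 in 3D, against 0, 10.7 and 17.5 in 2D (log2 change 2.38, adjusted p = 0.12). It passed without 2D replicate 3 (adjusted p = 0.025). Its antisense gene MMP25-AS1 covers 35.2% of its exon bases and had 198, 113 and 231 in 3D and 85.8, 151 and 123 in 2D, and without strand the reads of the pair cannot be told apart where they overlap. MMP23B had 49 reads over the 3D libraries and 10 over the 2D libraries, those in 2D being all from 2D replicate 3. Its count is uncertain, since 35% of its 75-base windows also occur in other genes, chiefly MMP23A.

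MMP24OS, on the strand opposite MMP24, had 479, 499 and 509 normalised counts in the 3D libraries, against 757, 742 and 799 in the 2D libraries. The cultures did not overlap and the gene was called lower (log2 change -0.63, SE 0.16, adjusted p = 0.026). It shares 14.5% of its exon bases with MMP24, and the library kit does not mark the strand, so the part of MMP24 reads in this fall cannot be told apart. Leaving out 2D replicate 1 or 2, or 3D replicate 1 or 3, ended the call (adjusted p 0.11 at most).

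The sheddases ADAM10 and ADAM17 were expressed in both cultures, and neither passed. ADAM10, which cuts Notch, the amyloid precursor and cadherins, had 1501, 1525 and 1404 normalised counts in the 3D libraries, against 1949, 2036 and 2026 in the 2D libraries. All 3D libraries lay below all 2D libraries, but limma did not call it (log2 change -0.44, SE 0.15, adjusted p = 0.059; DESeq2 adjusted p = 0.043), with an interval of -0.77 to -0.11 on the log2 scale. Without 2D replicate 3 it passed (adjusted p = 0.029). ADAM17, which releases tumour necrosis factor and ligands of the epidermal growth factor receptor, had 460.2, 529 and 426 in 3D, against 600.4, 542 and 443 in 2D (log2 change -0.16, adjusted p = 0.58; interval -0.60 to 0.29). It shares 12.3% of its exon bases with IAH1 on the other strand, which had 276, 355 and 257 in 3D and 622, 468 and 368 in 2D, and reads from the shared bases cannot be told apart.

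ADAM33 (ENSG00000149451, chromosome 20, 3667965 to 3682246, minus strand), best known as an asthma susceptibility gene, was the ADAM that rose. It had 1206, 655 and 1422 normalised counts in the 3D libraries, against 193, 297 and 466 in the 2D libraries, with 3D replicate 2 the lowest of the 3D libraries and 2D replicate 3 the highest of the 2D libraries (log2 change 1.79, SE 0.38, adjusted p = 0.013). The call was lost without 3D replicate 1 (adjusted p = 0.056) or 3D replicate 3 (adjusted p = 0.063). ADAM15, which carries an integrin-binding motif, was next to MMP15 in level per kb, at 519 ± 129 in 3D and 493 ± 133 in 2D (SD, n = 3 each). Its normalised counts were 3625, 2482 and 4141 in 3D, against 2888, 2612 and 4245 in 2D, and its log2 change was 0.07 (interval -0.51 to 0.65, adjusted p = 0.85). ADAM9, a widely expressed sheddase, had 1198, 1890.3 and 1318 in 3D, against 798, 861 and 1776 in 2D (log2 change 0.43, adjusted p = 0.35), and here the highest 2D library, replicate 3, was above 2 of the 3D libraries. Without 2D replicate 3 it passed (adjusted p = 0.014). ADAM8, known from leukocytes, had 129.9, 94.0 and 147 in 3D, against 51.5, 77.9 and 73.0 in 2D, which did not overlap and did not pass (log2 change 0.86, adjusted p = 0.068; adjusted p = 0.036 without 2D replicate 3).

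ADAM11 and ADAM22 lack a catalytic site and act in adhesion and at synapses. ADAM11 had 772, 463 and 945 in 3D, against 334, 358 and 543 in 2D, with overlap between 3D replicate 2 and 2D replicate 3 (log2 change 0.79, adjusted p = 0.086). It passed without 2D replicate 3 (adjusted p = 0.018) and without 3D replicate 2 (adjusted p = 0.033). ADAM22 averaged 312 ± 44.5 in 3D and 381 ± 5.59 in 2D (SD, n = 3 each; log2 change -0.30, adjusted p = 0.28). As a group the membrane-bound genes summed to 2286, 1890.3 and 2648 normalised counts per kb in the 3D libraries and 1494, 1444 and 2332 in the 2D libraries, and 2D replicate 3 was again within the 3D range. MMP24 held 1.24, 1.01 and 0.901% of that sum in 3D and 15.2, 13.8 and 6.47% in 2D. MMP17 held 10.2, 13.8 and 10.9% in 3D and 6.17, 5.74 and 4.67% in 2D.

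The 4 inhibitors split. TIMP1 (ENSG00000102265, chromosome X, 47582313 to 47586789, plus strand), a secreted inhibitor that acts weakly on the transmembrane MMPs, had 8207, 7578 and 10139.9 normalised counts in the 3D libraries, against 3047, 2474 and 5536 in the 2D libraries. Every 3D library was above every 2D library, and 2D replicate 3 was the nearest to them (log2 change 1.31, SE 0.29, adjusted p = 0.016). TIMP3 (ENSG00000100234, chromosome 22, 32801701 to 32863043, plus strand), which binds the matrix and inhibits ADAM17 and the aggrecanases as well as MMPs, had 1554, 2118 and 1639 normalised counts in the 3D libraries, against 3821, 3751 and 2374 in the 2D libraries. Every 3D library was below every 2D library, again with 2D replicate 3 the nearest (log2 change -0.89, SE 0.23, adjusted p = 0.027). For both genes, leaving out 2D replicate 1 or 2, or 3D replicate 1 or 3, ended the call, and the highest adjusted p was 0.077 for TIMP1 and 0.11 for TIMP3. Without 2D replicate 3 their adjusted p was 0.00022 and 0.0011.

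The promoters of TIMP1 and TIMP3 are shown beside each other because these inhibitors moved in opposite directions. They are the same length and source as that of MMP24, at chrX:47582186-47582435 for TIMP1 and chr22:32801455-32801704 for TIMP3, both on the plus strand, with GC boxes again in capitals. Both windows also run past the gene starts given above, 47582313 for TIMP1 and 32801701 for TIMP3.
TIMP1: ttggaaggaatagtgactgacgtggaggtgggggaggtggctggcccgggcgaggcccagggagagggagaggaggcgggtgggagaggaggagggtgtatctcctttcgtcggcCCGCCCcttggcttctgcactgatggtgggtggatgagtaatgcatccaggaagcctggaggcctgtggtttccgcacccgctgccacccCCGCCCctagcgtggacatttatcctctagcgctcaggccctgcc
TIMP3: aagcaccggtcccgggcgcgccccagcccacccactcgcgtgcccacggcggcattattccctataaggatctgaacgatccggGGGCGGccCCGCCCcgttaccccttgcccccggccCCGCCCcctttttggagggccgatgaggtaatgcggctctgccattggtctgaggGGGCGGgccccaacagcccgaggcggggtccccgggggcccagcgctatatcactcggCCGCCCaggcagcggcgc
The TIMP1 window held 2 GC boxes and the TIMP3 window held 5, and neither held the AP-1 or the TATA motif, nor did that of MMP24.

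TIMP2 (ENSG00000035862, chromosome 17, 78852977 to 78925387, minus strand), the partner of MMP14 in activation of the MMP2 proenzyme, had 10092, 14197 and 10232 normalised counts in the 3D libraries, against 9366, 9934 and 13396 in the 2D libraries. The cultures overlapped and its log2 change was 0.08 (interval -0.43 to 0.59, adjusted p = 0.82). TIMP4 had 175, 732 and 222 normalised counts in the 3D libraries, against 1265, 1026 and 184 in the 2D libraries. Here 2D replicate 3 stood with the lowest 3D libraries and 3D replicate 2 lay between these and the other 2D libraries, and the gene did not pass (log2 change -1.02, SE 0.76, adjusted p = 0.34). Without 2D replicate 3 the log2 change was -1.89 (adjusted p = 0.017). TIMP4 lies within SYN2 on the other strand and shares 10.3% of its exon bases with it, and SYN2 had 23.2, 83.4 and 20.6 in 3D and 163, 172 and 16.4 in 2D. SYN2 was likewise lowest in 3D replicates 1 and 3 and 2D replicate 3, and reads from the shared bases cannot be told apart.

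**Figure D3:**
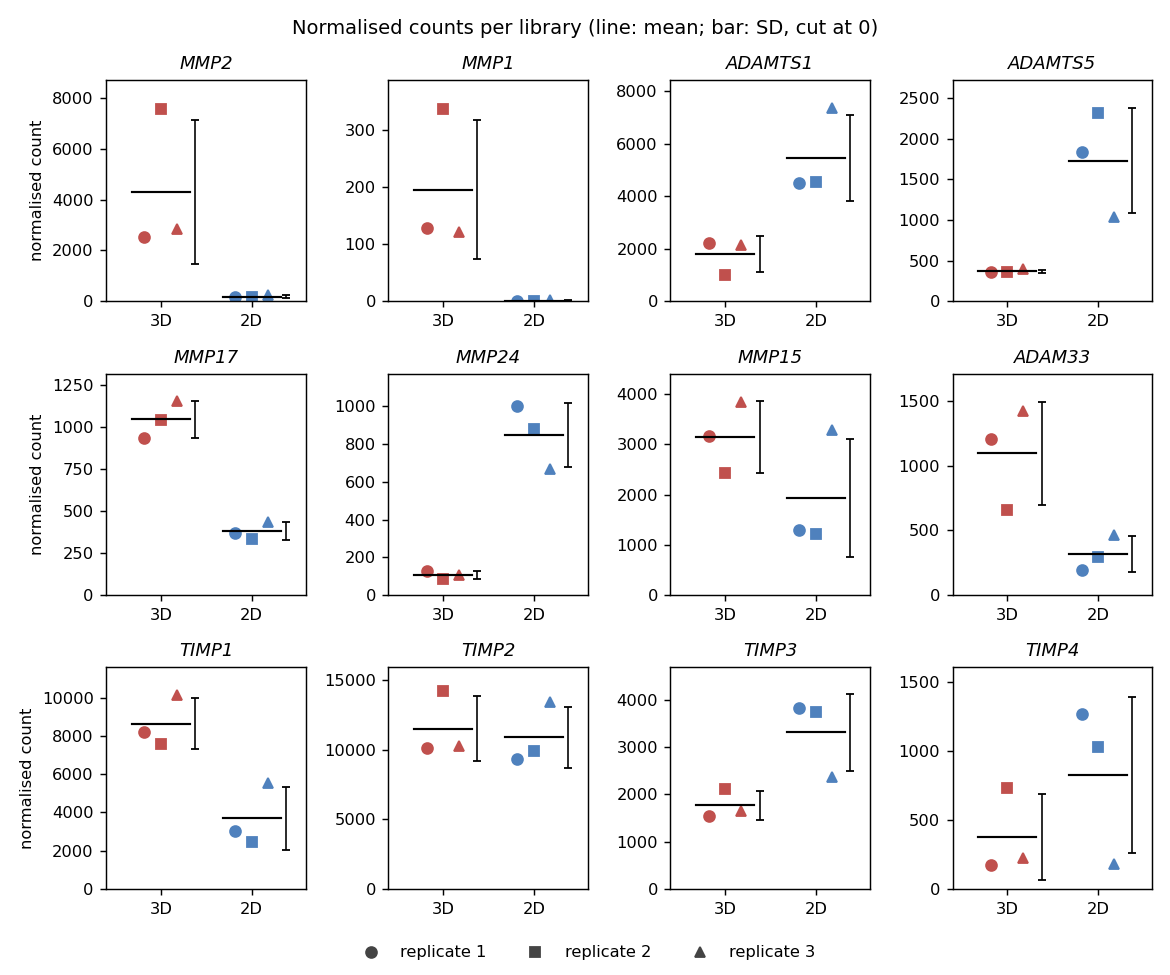
Normalised counts (y axis, linear from 0) of 12 genes in each library, with 3D at the left and 2D at the right of each panel, replicates by symbol, the mean as a line and the SD as a bar. MMP2, MMP1, MMP17, ADAM33 and TIMP1 are higher in every 3D library than in any 2D library, and ADAMTS1, ADAMTS5, MMP24 and TIMP3 are lower, while MMP15, TIMP2 and TIMP4 overlap.

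Per kb of exon, the TIMPs summed to more than the secreted or the membrane-bound proteases in every library. They summed to 7561, 8341 and 8887 in the 3D libraries and 5236, 4806 and 6598 in the 2D libraries, without overlap. TIMP1 made up 70.4, 59.0 and 74.0% of the TIMP sum in 3D and 37.8, 33.4 and 54.5% in 2D. TIMP3 made up 4.47, 5.52 and 4.01% in 3D and 15.9, 17.0 and 7.82% in 2D. The summed TIMP level was 7.01, 4.01 and 7.65 times the summed level of secreted proteases in the 3D libraries and 5.53, 4.76 and 4.92 times in the 2D libraries, which overlapped. Against the membrane-bound genes the ratio was 3.31, 4.41 and 3.36 in 3D and 3.51, 3.33 and 2.83 in 2D, which also overlapped. MMP2 per kb reached 0.285, 0.607 and 0.317 of the TIMP2 level in the 3D libraries and 0.0186, 0.0187 and 0.0206 in the 2D libraries. These are ratios of RNA levels and carry no measure of protein or activity.

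The split among the 2D libraries showed in most of the called genes. In 11 of the 13 called genes, 2D replicate 3 lay nearer to 3D than both other 2D libraries did (84.6%), beside 66.9% of all called genes. ADAMTS1 and MMP24OS were the exceptions, with 2D replicate 3 as the 2D library furthest from 3D. Within 3D, replicate 2 had the highest value for 6 of the 13 genes and the lowest for 4, beside 33.5% and 49.8% of all called genes. MMP1, MMP2, MMP13 and TIMP4 were at their 3D maximum in that library, whereas ADAM33, ADAM11, ADAMTS14 and ADAMTS1 were at their 3D minimum.

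**Figure D4:**
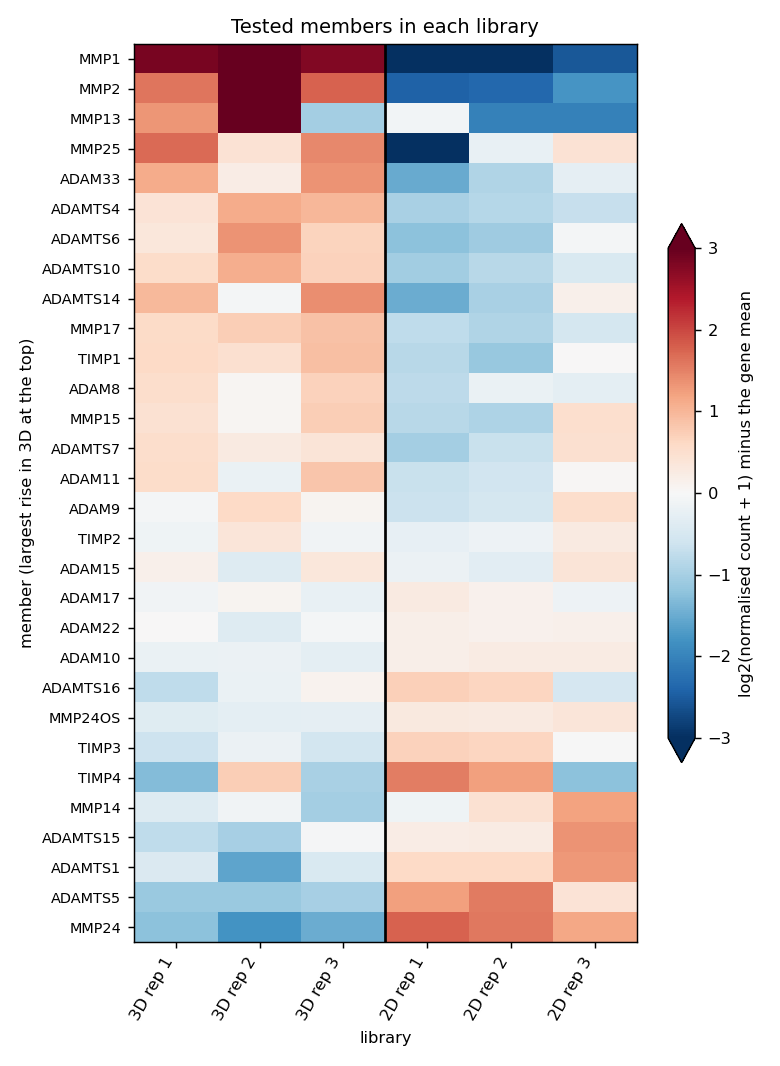
Level of the 30 tested genes (rows, largest rise in 3D at the top) in each library (columns), as log2(normalised count + 1) minus the mean of the gene, on a colour scale from -3 to 3. For 22 of the 30 genes, 2D replicate 3 lies toward 3D relative to both other 2D libraries, and 3D replicate 2 is the darkest 3D column for MMP1, MMP2 and MMP13.

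The 19 genes that were not tested had means of 0.313 to 9.72 over the 6 libraries. Among the secreted proteases they were ADAMTS3, ADAMTS8, ADAMTS17, ADAMTS18, MMP7, MMP8, MMP9, MMP19, MMP21 and MMP28. Among the membrane-bound genes they were ADAM12, ADAM19, ADAM20, ADAM21, ADAM23, ADAM28, ADAM32, MMP16 and MMP23B. ADAMTS3, a procollagen N-proteinase, had 12 reads over the 2D libraries and none in 3D. With 3 reads summed over the 3D libraries put in place of none, it was 4.16-fold lower. The value was 2.07 without 2D replicate 3, which gave 8 of the 12 reads. Both values leave out the counting error of the 2D reads. ADAM19 had 18 reads in the spheres against 4 in 2D, which is 4.33 times as many after scaling (95% interval 1.42 to 17.6). ADAM21 is uncertain, since 15.1% of its windows also occur in other genes, chiefly ADAM21P1. ADAM12, which melanoma and other tumours can express, had 5 reads in 3D and 2 in 2D. Most of the others had so few reads that no difference between the cultures was detectable at this depth.

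Of 5 tested genes listed with protease inhibitors other than TIMPs, the testicans SPOCK1 and SPOCK2 among them, 0 rose and 4 fell. Their median log2 change was -1.94, that of SPOCK2, where all tested genes were called lower in 11.6%. A2M and PZP, the broad-range protease traps of plasma, fell, A2M with 674, 68.8 and 703 in 3D, against 2154, 2110.5 and 10066 in 2D (log2 change -3.48, adjusted p = 0.029) and PZP with 24.1, 6.79 and 16.5 in 3D, against 85.8, 89.7 and 274 in 2D (log2 change -3.10, adjusted p = 0.0087). SPOCK1 and SPOCK2, proteoglycans of the testican family that are not both known as inhibitors, also fell, with log2 changes of -0.76 and -1.94. RECK, a membrane-anchored MMP inhibitor, had 235, 281 and 231 in 3D, against 285, 270.1 and 392 in 2D (log2 change -0.33, adjusted p = 0.31). The number that fell was 2 without 2D replicate 1 or 3D replicate 3, where A2M and SPOCK1 did not pass. A2M varied within each culture, with 3D replicate 2 the lowest and 2D replicate 3 the highest library.

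Of the genes that activate the proenzymes, PLAT, the tissue plasminogen activator, had 1354, 1743 and 1555 in 3D, against 67.7, 60.8 and 212 in 2D (log2 change 4.0, SE 0.43, adjusted p = 0.00092). PLAU, or urokinase, rose with it, by 1.22 on the log2 scale (adjusted p = 0.030; with 2D replicate 1 or 2 or 3D replicate 3 left out it was not called and reached 0.084). These were the 2 of 5 tested genes of plasminogen activation that were called, where 12.5% of all tested genes were called higher. Of 5 proprotein convertases, which cut the prodomain of ADAMs and membrane-type MMPs, 0 rose and 1 fell, a share near that of all tested genes (12.5% higher, 11.6% lower). FURIN and PCSK7 also passed with 2D replicate 3 left out, both higher in 3D (adjusted p = 0.032 and 0.021). PCSK6 fell, with 403, 354 and 447 in 3D, against 832, 825 and 709 in 2D (log2 change -0.98, adjusted p = 0.0081). FURIN had 1812, 4140.2 and 2111 in 3D, against 1324, 1227 and 1954 in 2D, its 3D replicate 2 the highest (log2 change 0.77, adjusted p = 0.11). Of 9 tested partners of ADAM10 and ADAM17, RHBDF1, an iRhom that carries ADAM17 to the surface, was the one called, with 701, 705 and 901 in 3D, against 213, 246 and 427 in 2D (log2 change 1.44, adjusted p = 0.0095; 0.054 without 3D replicate 3). This 1 of 9 was near the 12.5% of all tested genes called higher. With 2D replicate 3 left out, RHBDF2, FRMD8 and TSPAN14 passed as higher too (adjusted p = 0.0041, 0.017 and 0.029) and TSPAN33 as lower (0.045). That fit called 22.6% of all tested genes higher and 23.0% lower.

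Of 5 tested astacin proteases and their procollagen enhancers, 4 rose and 0 fell, where 12.5% of all tested genes were called higher. The 4 were 2 of 3 tested enzymes and both enhancers, and the enzyme TLL2 did not pass (log2 change 1.01, adjusted p = 0.098). TLL1 had 109, 93.1 and 83.6 in 3D, against 7.62, 11.7 and 29.8 in 2D (log2 change 2.67, adjusted p = 0.0078), BMP1 had 2863, 2576 and 3275 in 3D, against 1482, 1456 and 1776 in 2D (log2 change 0.88, adjusted p = 0.0095), and the enhancers PCOLCE and PCOLCE2 rose by 1.67 and 0.90 on the log2 scale (adjusted p = 0.030 and 0.021). The number that rose was 2 with 2D replicate 1 or 2 or 3D replicate 1 left out and 1, TLL1, without 3D replicate 3. Of 7 collagen genes whose products MMP1 and MMP2 can cleave, 6 rose and 0 fell, with a median log2 change of 2.08, beside 12.5% called higher and a median of -0.02 over all tested genes. COL7A1, the anchoring fibril collagen, had 11133, 15443 and 11720.3 in 3D, against 1742, 3018 and 3533 in 2D (log2 change 2.25, adjusted p = 0.0016) and COL3A1, a fibrillar collagen also counted above as a fibroblast marker, had 6445, 3521 and 7148 in 3D, against 444, 506 and 1749 in 2D (log2 change 2.89, adjusted p = 0.0065). COL2A1 and COL5A1, both fibrillar, rose by 3.27 and 2.08 on the log2 scale (adjusted p = 0.010 and 0.011). The number that rose was 4 with 2D replicate 1 or 2 or 3D replicate 1 or 2 left out and 3 without 3D replicate 3.

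Among the substrates of ADAMTS enzymes, BCAN, or brevican, was the 1 of 4 tested that was called, with 209, 143 and 206 in 3D, against 69.6, 105 and 89.4 in 2D (log2 change 1.07, adjusted p = 0.027; up to 0.12 with 2D replicate 1 or 3D replicate 1 or 3 left out), while ACAN, the aggrecan gene, was under a mean of 10. Over all tested genes 12.5% were called higher. Leaving out 2D replicate 3 gave 2 of these substrates that rose and 1 that fell, beside 22.6% and 23.0% of all tested genes. None of 4 tested ADAMTS-like glycoproteins, which share the ancillary domains without the protease, was called by limma with all 6 libraries, and 2 were called without 2D replicate 3, 1 without 3D replicate 2 and 1 with equal library totals. At an unadjusted p under 0.05 there were 2 (ADAMTSL2 and ADAMTSL5), both higher in 3D, and edgeR called 1 and DESeq2 called 2. Of 8 tested growth factors that ADAMs shed, TGFA rose, with 567, 681 and 551 in 3D, against 336, 316 and 321 in 2D (log2 change 0.88, adjusted p = 0.012; 0.053 without 3D replicate 1), and BTC fell (log2 change -2.87, adjusted p = 0.026; up to 0.10 with 2D replicate 1 or 2 or 3D replicate 1 or 3 left out). With 1 of the 8 higher and 1 lower, the ligands were near the shares of all tested genes (12.5% and 11.6%). Leaving out 2D replicate 3 gave 2 ligands that rose and 3 that fell, beside 22.6% and 23.0% of all tested genes. Leaving out 3D replicate 1 gave none. Of 14 other tested substrates of ADAM10 and ADAM17, 2 rose and 5 fell, where all tested genes were called higher in 12.5% and lower in 11.6%, so the share that rose was near that of all genes. NOTCH3 had 6848, 7430.3 and 7200.03 in 3D, against 403, 557 and 2114 in 2D (log2 change 3.20, adjusted p = 0.0050), and MET, the receptor of hepatocyte growth factor, had 589, 869.5 and 569.8 in 3D, against 3168, 3436 and 3485 in 2D (log2 change -2.34, adjusted p = 0.00045). CDH1, or E-cadherin, had 2.78, 5.82 and 8.26 in 3D, against 84.8, 76.9 and 115 in 2D (log2 change -3.89, adjusted p = 0.0012), and NOTCH2 fell by 0.97 on the log2 scale (adjusted p = 0.010; 0.055 without 3D replicate 3). Leaving out 3D replicate 1 left 3 substrates that fell, and leaving out 3D replicate 3 left 2, with 1 that rose in both cases. Of 5 tested inducers, receptors and partners of MMPs, ITGA2, the collagen-binding integrin subunit, rose, with 1092, 1322 and 849 in 3D, against 286, 335 and 224 in 2D (log2 change 1.94, adjusted p = 0.0015). LCN2, which binds and stabilises MMP9, fell, with 4.64, 0.969 and 14.5 in 3D, against 1086, 968 and 25.7 in 2D, where 2D replicate 3 was far below the other 2D libraries (log2 change -5.77, adjusted p = 0.020), and leaving out 2D replicate 1 or 2 or 3D replicate 1 or 2 ended the call. The 1 that rose and the 1 that fell of these 5 stand beside 12.5% and 11.6% of all tested genes. Leaving out 2D replicate 3 gave 2 of this list that fell, beside 23.0% of all tested genes.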

How the data were processed

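RNA-seq libraries of M14 cells in 3D (n = 3) and 2D (n = 3) were grouped by their sample titles. The submitters' processing notes name HISAT2, featureCounts 1.5.0, DESeq2 and GRCh38. In the deposited table each gene has a signal, which the authors made by dividing its reads by 1 size factor per library, as the values show: multiplied back, all came within 0.01 of a whole read. The 6 empty columns were not used.

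Symbols came from a gene name table (26506 of 26748 IDs), biotypes, coordinates and exon lengths from GENCODE 29 (26702 IDs). Of 57 rows matching by symbol, 8 were not protein-coding and were left out. The members, groups and gene lists were chosen with earlier results of these data known.

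Genes with a mean of at least 10 (15598) were tested with limma 3.58.1 (R 4.3.3) on log2(value + 1), eBayes with a trend and Benjamini-Hochberg adjustment at 0.05 over all genes. This scale understates the change of low genes. The alternatives tried were a pseudocount of 0.1 or 10, testing unfiltered genes, a minimum mean of 50, TMM and equal-total scaling, the replicate block, edgeR 4.0.16 and DESeq2 1.42.0 on the recovered reads (edgeR called 3657 genes), and leaving out libraries. Intervals of read ratios are exact binomial at 95% and cover counting error only. Where a culture had no reads, a floor of 3 reads took its place, without the counting error of the other culture. Genes were named by rule: all members called, all TIMPs, the 5 members per group highest per kb, and up to 4 called genes per list, those with the smallest adjusted p. Other members with values, RECK, FURIN, the motifs and the promoters were chosen after their values were seen. The workflow was tested on simulated counts.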

Additional observations from a re-analysis of the deposited data

How the results depend on the processing

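Of the 13 called genes, MMP1, MMP2, MMP17, MMP24, ADAMTS1, ADAMTS5 and ADAMTS10 kept their call in all 16 alternatives run. Over the tested genes and alternatives, 419 of 476 results kept their direction and their side of the threshold, 22 were no longer called, 31 were newly called and 4 changed direction, none of them called. These were TIMP2 with 2D replicate 1 or 3D replicate 2 left out and ADAM15 with 2D replicate 2 or 3D replicate 3 left out; over the 6 fits that leave out 1 library, the log2 change of TIMP2 ran from -0.083 to 0.24 and that of ADAM15 from -0.082 to 0.29. Genes higher in 3D numbered 4 to 15 and genes lower numbered 3 to 7 with 1 library left out, and 16 were higher without 2D replicate 3 and 3D replicate 2 together. The median log2 change of secreted proteases was 1.21 with a pseudocount of 10, -0.029 with no filter, which adds 10 genes of low counts, and 1.26 to 1.73 with 1 library left out. That of membrane-bound proteins was 0.22 to 0.80 with 1 library left out, and that of inhibitors -0.55 to -0.23. Over all genes, limma called 3766, and 1190 to 7111 with 1 library left out and 9041 with both left out. Equal library totals moved the median of all genes to 0.11, against -0.02, with 2392 genes higher and 1253 lower against 1950 and 1816, and called 9 genes of the families higher and 4 lower. Libraries with the same replicate number did not deviate together (correlations of -0.0840, -0.139 and 0.0447), and 1 of the 3 correlated best with its own number. With the replicate block, 10 of the genes were higher and 5 lower: MMP15, ADAMTS14 and ADAMTS15 passed (adjusted p = 0.046, 0.042 and 0.030), and MMP24OS and, among the substrates, BCAN did not, and 1 ADAMTS-like gene was called. MMP24OS was also not called under equal totals. DESeq2 called 12 higher and 7 lower, and 4724 of all genes: MMP13 (0.016), ADAMTS14 (0.024), ADAMTS15 (0.021), ADAM8 (0.032), ADAM10 (0.043) and ADAM11 (0.038) passed there (adjusted p in parentheses), and edgeR called 8 and 5. Genes under a mean of 10 are limited by depth, and their fold changes on the log2(value + 1) scale are understated. The cause of these shifts was not tested.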
